A study of Mus musculus with 16 samples.

Results

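Cytosolic ribosomal protein genes were examined as targets of the transcription factors Bcl11a and Spi1 in mouse MPP3 cells, a multipotent progenitor population of the bone marrow. Members were the protein-coding genes of the mouse GRCm38 (mm10) annotation whose symbols begin with Rpl or Rps and a digit, or with Rplp, leaving out the Rps6k kinases. This gave 90 of 21883 protein-coding genes on assembled chromosomes. They comprised 43 large subunit genes, 30 small subunit genes, 3 genes of the P-stalk, 13 paralogs or retrocopies, and Rps19bp1, which encodes a binding partner of Rps19 and not a ribosomal protein. Measured binding played no part in the symbol rule.

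The data were 16 CUT&Tag peak lists, 1 per library, in 6 groups. Antibodies to Bcl11a were used on MPP3 cells of WT-iMOS mice, in 3 libraries labelled T1 and 3 labelled T2. Antibodies to Spi1 were used on WT-iMOS cells (3 T1 and 3 T2 libraries) and on KO-iMOS cells (2 T1 and 2 T2 libraries). The study asked how Bcl11a acts in MPP3 cells. The labels explain neither iMOS, T1, T2 nor the "3m" in the titles, do not name the gene deleted in KO-iMOS, and do not say whether replicates are separate animals. P-values therefore measure the spread between these libraries, which may be technical. Bcl11a was not profiled in KO-iMOS cells here. Which gene is deleted, and whether it is, could not be checked with these peak lists.

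Ribosomal proteins and ribosomal RNA form the small and large subunits that read messenger RNA and join amino acids. Their genes are short, are transcribed strongly in growing cells and are made in matched amounts, and loss of 1 copy of several of them causes Diamond-Blackfan anaemia, a failure of red cell production. Spi1, also called PU.1, is an ETS factor that binds purine-rich sites built on GGAA and directs myeloid and lymphoid development. Bcl11a is a zinc finger repressor known for silencing fetal globin genes and for its role in lymphoid development.

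Promoter sequences are given first. RefSeq start sites on GRCm38.p6 were found for 69 of the 90 members. Printed below, 5′ to 3′ on the gene's own strand, are the 200 bases before the start and the first 20 bases of the transcript. Capitals mark GGAAGT, an ETS-type motif, or its reverse complement ACTTCC. The first 4 genes had Spi1 peaks near the start in all 6 WT-iMOS libraries and hold the motif. Rps19 had the highest-ranked Spi1 peak of any member in each of the 10 Spi1 libraries and lacks the motif. Rps4x and Rpl28 had no peak of either factor in any library, in the gene or within 10 kb of it. Their printed stretches lack the motif, but Rpl28 has 1 match between 250 bp before and 50 bp after the start. Rps26, which is not printed, had Spi1 in all 10 Spi1 libraries and has 0 matches in that longer stretch. Bound genes without the motif and an unbound gene with it thus both occur.
Rps25: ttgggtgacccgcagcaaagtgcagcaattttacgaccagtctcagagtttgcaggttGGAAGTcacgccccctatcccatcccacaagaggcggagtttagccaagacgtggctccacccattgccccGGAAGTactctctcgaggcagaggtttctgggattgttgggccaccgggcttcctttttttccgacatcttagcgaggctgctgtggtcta
Rps3: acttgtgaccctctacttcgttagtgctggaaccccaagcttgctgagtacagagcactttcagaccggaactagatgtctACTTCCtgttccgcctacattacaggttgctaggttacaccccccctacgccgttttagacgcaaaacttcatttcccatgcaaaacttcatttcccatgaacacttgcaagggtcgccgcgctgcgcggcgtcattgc
Rps18: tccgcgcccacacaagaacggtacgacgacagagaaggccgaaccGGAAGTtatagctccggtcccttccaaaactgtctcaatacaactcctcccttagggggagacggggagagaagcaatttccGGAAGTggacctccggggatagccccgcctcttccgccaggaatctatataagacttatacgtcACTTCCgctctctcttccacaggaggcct
Rps21: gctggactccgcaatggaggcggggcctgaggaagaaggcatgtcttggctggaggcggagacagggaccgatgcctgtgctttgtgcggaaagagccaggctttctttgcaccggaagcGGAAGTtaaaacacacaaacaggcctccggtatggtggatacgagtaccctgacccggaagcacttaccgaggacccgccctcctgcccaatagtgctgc
Rps19: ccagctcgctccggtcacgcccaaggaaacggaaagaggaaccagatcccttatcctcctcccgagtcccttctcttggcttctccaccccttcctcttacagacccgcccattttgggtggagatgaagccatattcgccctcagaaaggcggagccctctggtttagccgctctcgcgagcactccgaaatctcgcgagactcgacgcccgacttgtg
Rps4x: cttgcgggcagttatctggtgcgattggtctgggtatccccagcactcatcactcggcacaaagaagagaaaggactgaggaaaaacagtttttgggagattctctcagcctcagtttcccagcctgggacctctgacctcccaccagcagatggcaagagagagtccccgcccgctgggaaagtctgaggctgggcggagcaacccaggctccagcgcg
Rpl28: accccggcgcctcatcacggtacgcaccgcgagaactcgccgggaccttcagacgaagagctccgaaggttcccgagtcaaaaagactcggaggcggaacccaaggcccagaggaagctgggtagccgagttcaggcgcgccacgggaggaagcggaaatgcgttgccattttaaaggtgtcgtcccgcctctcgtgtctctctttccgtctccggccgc
The stretches are chr9:44407514-44407733 on the plus strand for Rps25, chr7:99483690-99483909 on the minus strand for Rps3, chr17:33955646-33955865 on the minus strand for Rps18 and chr2:180257179-180257398 on the plus strand for Rps21. Those of Rps19, Rps4x and Rpl28 are chr7:24884392-24884611 (plus), chrX:102189372-102189591 (minus) and chr7:4792765-4792984 (plus). Spi1 summits of the WT-iMOS libraries lay between -152 and -2 bp from the start at Rps3, between -113 and 10 bp at Rps18 and between -119 and 7 bp at Rps21. At Rps25 they lay from -401 to -157 bp and at Rps19 from -321 to -200 bp, so at both genes most of them fell outside the printed stretch or near its upstream edge.

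A gene was scored as having a peak in a library when the summit of a deposited peak lay within 1 kb of either gene end, and separately when it lay in the gene body or 10 kb on either side (the locus). Members are short, with a median length of 3170 bp against 17170 bp for all genes, and 36 of them (40.0%) have another gene within 1 kb against 31.6% of all genes. Each share of members is therefore set beside the share of all genes and the share of other genes of like length, averaged over the length bins of the members. The lists held 2719 to 20241 peaks, those of KO-iMOS being the longest on average. Read depth is unknown. Peak names in the KO-iMOS T1 lists begin with PWT and those in the KO-iMOS T2 lists with PKO, a difference the labels do not explain. Ratios, counts of members with repeated peaks at ends and differences in share are therefore also given for KO-iMOS without T1. The tests, gene classes, summit positions and comparisons of gene features join T1 and T2 of KO-iMOS, and could differ in T2 alone. Names in the WT-iMOS lists begin with PWG or BWG for T1 and with PMG or BMG for T2. Bcl11a T1 replicates 2 and 3 stood apart from the other 4 Bcl11a libraries, with peaks at the ends of 12.1% and 15.8% of all genes against 2.62% to 4.50%. Binding near a gene is not expression, so the MPP3 label could not be tested with these files. Near gene ends, 3 of 7 progenitor marker genes had a Spi1 peak in any WT-iMOS library, as did 1 of 3 B cell, 2 of 4 erythroid, 0 of 3 T cell, 0 of 3 mature neutrophil and 0 of 3 stromal marker genes. Of all genes 18.9% had one. None of these marker genes had one in at least 3 of the 6 libraries, where 9.32% of all genes did.

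Spi1 lay at the ends of many ribosomal protein genes in WT-iMOS cells. The 3 T1 libraries had peaks at 37, 25 and 19 members and the 3 T2 libraries at 43, 23 and 13. These are 41.1%, 27.8%, 21.1%, 47.8%, 25.6% and 14.4% of the members, where all genes gave 13.4%, 8.55%, 6.40%, 15%, 7.96% and 4.78% in the same libraries. In every one of the 6 libraries the members' share exceeded both that of all genes and that of genes of like length. Over genes of like length, the ratio of shares was 3.94, 4.38, 4.18, 3.98, 3.79 and 3.76 (mean 4.01 ± 0.24, SD, n = 6). The ratio stayed between 3.76 and 4.38 while the number of occupied members ranged from 13 to 43. These ratios describe a chosen list, and no test was made of them.

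**Figure D1:**
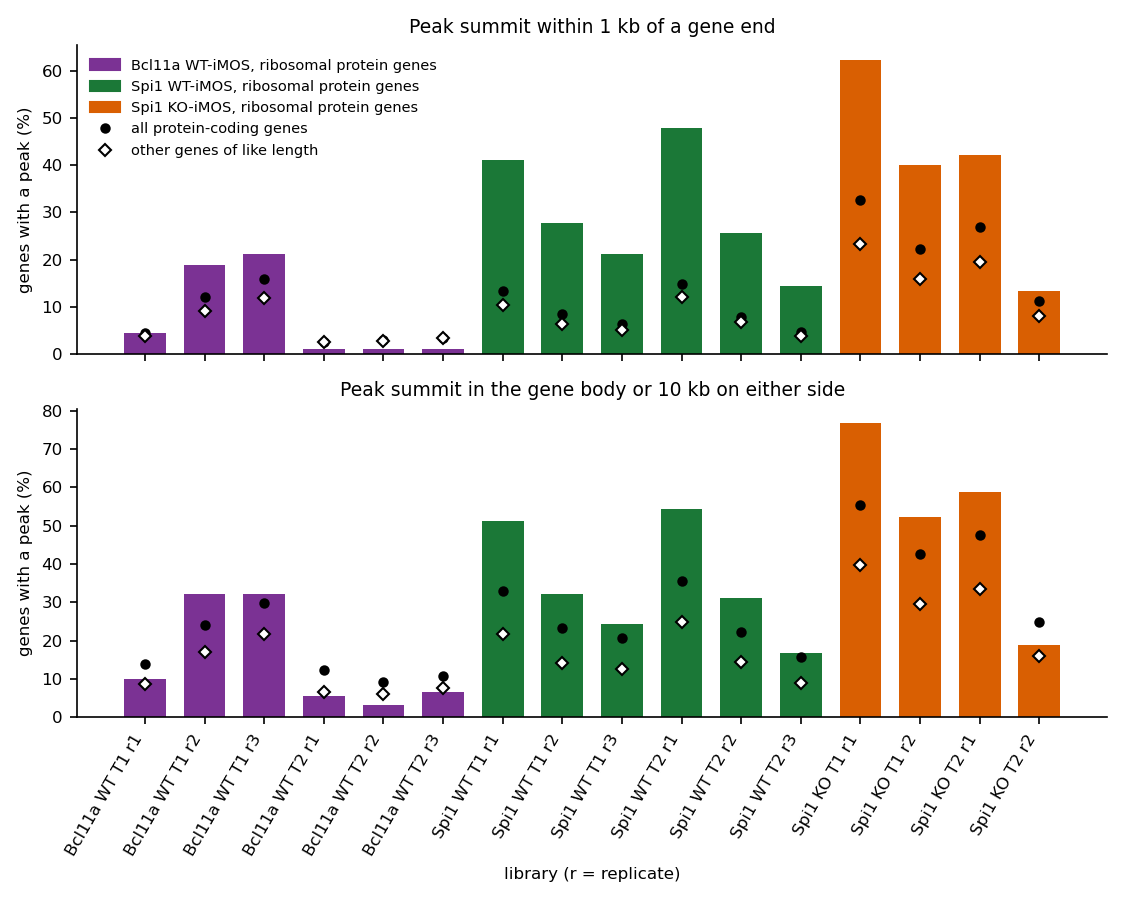
Percentage of the 90 ribosomal protein genes with a peak (bars) in each of the 16 libraries, with the same percentage for all 21883 protein-coding genes (black dots) and for other genes of like length (white diamonds); the upper panel counts summits within 1 kb of a gene end and the lower panel summits in the gene body or 10 kb on either side. In the upper panel the green bars, from 14.4% to 47.8%, and the orange bars, from 13.3% to 62.2%, stand above their diamonds, and the 3 Bcl11a T2 bars, at 1.11%, stand below theirs.

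In KO-iMOS cells the Spi1 libraries had peaks at 56 and 36 members (T1) and at 38 and 12 members (T2). These shares of 62.2%, 40.0%, 42.2% and 13.3% stood beside 32.6%, 22.3%, 26.9% and 11.2% of all genes. Their ratios over genes of like length were 2.67, 2.52, 2.17 and 1.63 (mean 2.25 ± 0.46, SD, n = 4), and 2.17 and 1.63 without the T1 libraries. The 4 KO-iMOS ratios did not overlap the 6 WT-iMOS ratios. When every list was cut to its 2719 highest peaks, the ratios were 4.13 to 5.76 in the WT-iMOS libraries and 2.27, 2.76, 0.692 and 2.66 in the KO-iMOS libraries, again without overlap. On the full lists the mean share was 29.6% of members in WT-iMOS and 39.4% in KO-iMOS, and 7.40% and 16.7% of genes of like length. In the equal lists 8 to 14 members were occupied in a WT-iMOS library and 2 to 8 in a KO-iMOS library. The share of all genes went the other way, from 2.70% to 3.53% in WT-iMOS and from 3.87% to 4.73% in KO-iMOS libraries. In the equal lists the lower KO-iMOS ratios thus go with 8 or fewer members and with a larger share of all genes. On the full lists the mean shares of members and of genes of like length were both higher in KO-iMOS.

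Bcl11a showed no such pattern over its 6 WT-iMOS libraries. Peaks were at the ends of 4, 17 and 19 members in T1 and of 1, 1 and 1 in T2. The ratios over genes of like length were 1.13, 2.07 and 1.77 in T1 and 0.428, 0.405 and 0.326 in T2. The 2 T1 libraries that stood apart gave the 2 highest ratios. In the lists of equal length the ratios were 0.451, 1.47 and 1.30 in T1 and 0.0, 0.405 and 0.0 in T2, so T1 replicate 1 lay close to T2 replicate 2.

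**Figure D2:**
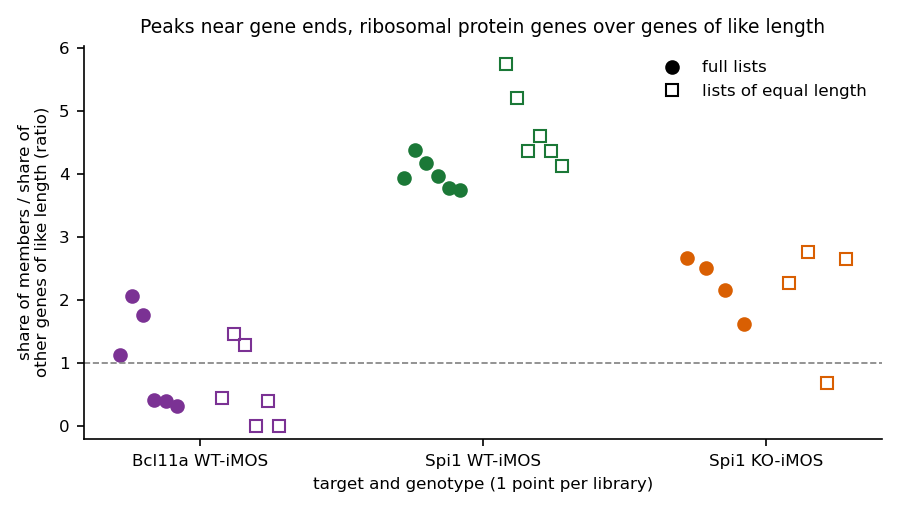
Ratio of the share of ribosomal protein genes to the share of other genes of like length with a peak within 1 kb of a gene end, 1 point per library, for the full lists (filled circles) and for lists cut to 2719 peaks (open squares); the dashed line marks a ratio of 1. Spi1 in WT-iMOS runs from 3.76 to 4.38 on the full lists, above the 4 KO-iMOS libraries at 1.63 to 2.67, and Bcl11a runs from 0.326 to 2.07.

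A factor was said to recur at a gene with a peak in at least 3 of 6 libraries, or 2 of 4. Spi1 recurred at the ends of 27 members in WT-iMOS cells (30.0%, against 9.32% of all genes and 7.37% of genes of like length). In KO-iMOS cells it recurred at 42 members (46.7%, against 27.3% and 19.2%). Of the 2 KO-iMOS T2 libraries alone, both had a peak at 12 members (13.3%, against 10.4% of all genes) and at least 1 at 38 (42.2%, against 27.6%). Bcl11a recurred at 4 members (4.44%, against 5.59% and 4.88%). At loci the counts were 30, 57 and 11, and at loci the shares of all genes were 26.1%, 49.6% and 15.8%. Spi1 was present in all 6 WT-iMOS libraries at 12 members (13.3%, against 3.11% of all genes) and in all 4 KO-iMOS libraries at 12 (13.3%, against 9.28%). Over the 16 libraries 64 members had a peak at an end in at least 1 and 26 in none. No such count over all genes is given. By group, 30.0% of members had an end peak in any Bcl11a library, against 19.4% of all genes. For Spi1 these shares were 55.6% against 18.9% in WT-iMOS and 65.6% against 37.3% in KO-iMOS.

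Small subunit genes carried more of the recurrent Spi1 peaks than large subunit genes. Spi1 recurred at 15 of 30 small subunit genes (50%) and at 9 of 43 large subunit genes (20.9%) in WT-iMOS cells, and at 19 (63.3%) and 18 (41.9%) in KO-iMOS cells. Of the 12 members occupied in all 6 WT-iMOS libraries, 8 encode small subunit proteins and 4 large subunit proteins. No test of this difference between the subunits was made. The P-stalk, which recruits translation factors to the large subunit, had recurrent Spi1 at 1 of its 3 genes in WT-iMOS and at 3 of 3 in KO-iMOS cells. The 1 gene was Rplp1, with Spi1 in 3 of 6 and 4 of 4 libraries.

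**Figure D3:**
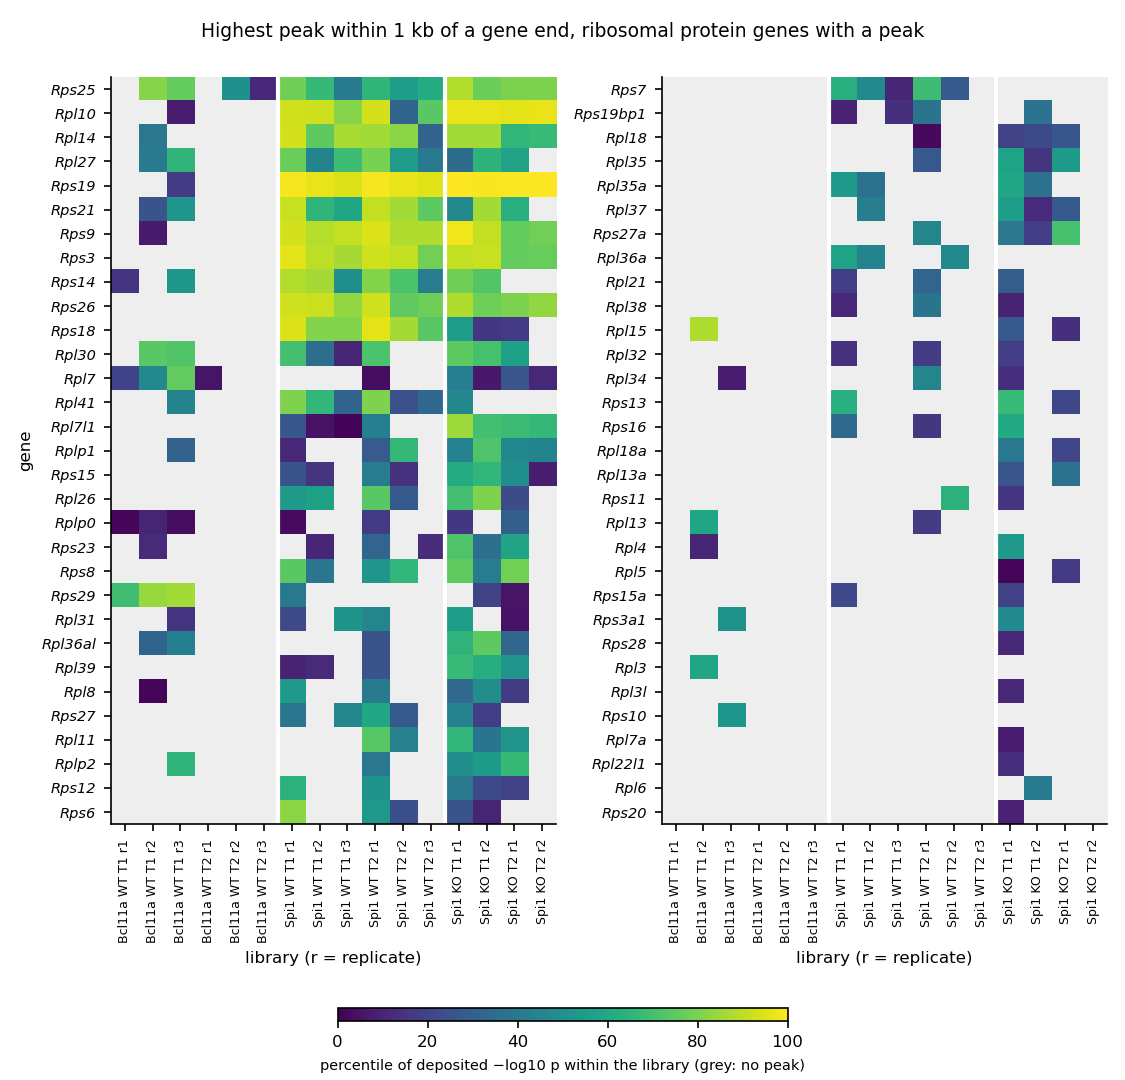
Of the 64 ribosomal protein genes with a peak within 1 kb of a gene end in any library, 62 are shown as rows in 2 panels, against the 16 libraries as columns; colour gives the percentile of the highest such peak among all peaks of its library by deposited −log10 p, and grey means no peak. The Spi1 columns at the top of the left panel are filled for genes such as Rps25, Rps19, Rps3 and Rps26, and the 3 Bcl11a T2 columns hold 1 gene each.

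Peaks at members were neither all weak nor all strong. The median percentile of member peaks within a list averaged 57.8 ± 9.85 (SD, n = 6) for Spi1 in WT-iMOS, 57.0 ± 11.1 (SD, n = 4) in KO-iMOS and 29.4 ± 20.2 (SD, n = 6) for Bcl11a. For all peaks near gene ends the averages were 52.6, 50.4 and 45.9. The 3 Bcl11a T2 libraries had 1 member peak each. In Bcl11a T1 replicates 2 and 3, with 17 and 19 members, the medians were 39.8 and 51.1, against 51.1 and 54.0 for all peaks near gene ends.

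Among small subunit genes, Rps19, which is mutated in Diamond-Blackfan anaemia, held the strongest Spi1 peaks. Ranked by the authors' −log10 p within each list (100 being the highest peak; lists differ in length, so percentiles show no change between groups), the Rps19 peak stood at percentile 98.5, 96.9, 94.9, 98.6, 96.5 and 95.2 in the 6 WT-iMOS libraries and at 99.7, 99.0, 99.5 and 99.8 in the 4 KO-iMOS libraries. The region was chr7:24883921-24884816, across the gene's start. A single Bcl11a library, T1 replicate 3, had a peak there, at percentile 17.7. Rps19 thus ranked near the top of every Spi1 list and low in the only Bcl11a list that held it.

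Rps26 and Rps3 line the path of messenger RNA through the small subunit. Both had Spi1 in 6 of 6 WT-iMOS and 4 of 4 KO-iMOS libraries and Bcl11a in 0 of 6. Rps3 (chr7:99483233-99484062) stood at percentile 96.1, 90, 86.6, 92.8, 90.7 and 78.6 in WT-iMOS. In KO-iMOS it stood at 91.0, 91.8, 76.4 and 76.9. Rps26 (chr10:128626403-128627132) ranged from 75.6 to 92.8 in WT-iMOS and from 78.0 to 88.2 in KO-iMOS libraries. Its 6 WT-iMOS summits all lay between -267 and -261 bp from the start.

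Rps18, a protein of the small subunit's head, had Spi1 in 6 of 6 WT-iMOS libraries at percentiles 94.8, 81.3, 80.9, 96.1, 86.6 and 74.3. In KO-iMOS cells 3 of 4 libraries had a peak, at 55.4, 16.4 and 17.2. The region was chr17:33955286-33956172, with Vps52 within 1 kb. Rps18 had no Bcl11a peak at its ends, but all 6 Bcl11a libraries had one elsewhere in its locus, where 15 of the 16 libraries had a peak, the most of any member.

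Rps25, which contacts viral internal ribosome entry sites, had a peak at an end in 14 of 16 libraries, the most of any member in that window. Spi1 was there in all 10 Spi1 libraries, at percentiles from 40.8 to 78.3 in WT-iMOS and from 77.5 to 88.5 in KO-iMOS. Bcl11a was there in 4 of 6 libraries, T1 replicates 2 and 3 at percentiles 82.0 and 76.2 and T2 replicates 2 and 3 at 50.3 and 11.7. The region, chr9:44406749-44407765, also lies within 1 kb of Trappc4, so the peak cannot be given to either gene alone. Rps21 (chr2:180256750-180257600, near Cables2) had Spi1 in 6 of 6 and 3 of 4 libraries and Bcl11a in 2 of 6. Rps9, which helps keep decoding accurate, had Spi1 in 6 of 6 and 4 of 4 libraries, but its region (chr7:3706784-3707433) was at the far end of the gene, with summits 3112 to 3153 bp downstream of the start.

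Among large subunit genes, Rpl10, Rpl14, Rpl27 and Rpl41 had Spi1 in 6 of 6 WT-iMOS libraries. Rpl10, which joins the large subunit late in its assembly, stood at percentile 92.7, 92.6, 82.0, 93.2, 32.3 and 74.5 in WT-iMOS (chrX:74270091-74270794). Its KO-iMOS peaks stood at 96.5, 96.5, 95.9 and 96.5. Rpl14 (chr9:120570944-120571729) had Spi1 in 4 of 4 KO-iMOS libraries and Rpl27 (chr11:101442142-101442715) in 3 of 4. Bcl11a had peaks at Rpl10 and Rpl14 in 1 of 6 libraries each and at Rpl27 in 2 of 6. Rpl30 had Spi1 in 4 of 6 WT-iMOS and 3 of 4 KO-iMOS libraries and Bcl11a in 2 of 6.

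The difference between targets was tested for each gene. By Fisher's exact test of 6 Bcl11a against 6 Spi1 libraries of WT-iMOS, with Benjamini-Hochberg adjustment over 21883 genes, 0 members and 0.0% of all genes passed 0.05 in either window. The smallest adjusted p was 0.275 at ends and 0.160 at loci. At an unadjusted p under 0.05, Spi1 was the more frequent target at the ends of 10 members (11.1%), against 1.68% of all genes. They included Rpl41, Rps26, Rps7, Rps18, Rps9, Rps19, Rps3, Rpl14 and Rpl10. The smallest p that this design allows, 0.00216, was reached by Rps26, Rps18 and Rps3, each at 6 of 6 Spi1 and 0 of 6 Bcl11a libraries. Bcl11a was the more frequent target at 0 members, against 0.224% of all genes. At loci the counts were 10 members (3.65% of all genes) and 0 members (0.26% of all genes). Only genes with Spi1 in several libraries can show more frequent Spi1, and these were more common among members. Of 27 members with Spi1 at an end in at least 3 libraries, 22 (81.5%) had a share of libraries at least 0.5 lower for Bcl11a. Of 2040 such genes 55.3% did. Counting a peak at an end in any WT-iMOS library, Spi1 alone was found at 28 members (31.1%, against 6.73% of all genes), Bcl11a alone at 5 (5.56%, against 7.17%) and both at 22 (24.4%, against 12.2%).

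No member passed the test between KO-iMOS and WT-iMOS Spi1 libraries. By the same Fisher's exact test of 4 against 6 libraries 0 members and 0.0% of all genes passed, with a smallest adjusted p of 0.457 at ends and 0.264 at loci and a smallest possible unadjusted p of 0.00476. At an unadjusted p under 0.05, 1 member (Rpl7) was the more frequent target in KO-iMOS at ends, where 6.13% of all genes were. In the other direction stood 2 members, Rpl41 and Rps7, against 0.105% of all genes. At loci the counts were also 1 and 2 members, against 8.35% and 0.887% of all genes.

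Differences in the share of libraries of at least 0.5 give a fuller description. At 13 members (14.4%) the share was that much higher in KO-iMOS, close to the 16.1% of all genes. At 4 members (4.44%) it was that much lower, where 0.219% of all genes were. A gene could be so much lower only if at least 3 of the 6 WT-iMOS libraries had a peak; the 4 are 14.8% of 27 such members, and 48 are 2.35% of 2040 such genes. At loci the shares were close, 3 of 30 such members (10%) and 461 of 5708 such genes (8.08%). Against the KO-iMOS T2 libraries alone, 7 members were higher (7.78%, against 15.3% of all genes) and 10 lower (11.1%, against 0.973%). Against T1 alone, 28 were higher (31.1%, against 25%) and 3 lower (3.33%, against 0.201%). The same limit holds for these lower counts, since 30.0% of members but only 9.32% of all genes could be so much lower at ends.

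The 4 members that stood lower were Rps7, Rpl41, Rps14 and Rpl36a. Rps7 (chr12:28635656-28636279, across the start) had Spi1 in 5 of 6 WT-iMOS libraries, at percentiles 63.0, 47.4, 10.9, 68.9 and 28.4, and in 0 of 4 KO-iMOS libraries (unadjusted p = 0.0476, Fisher's exact test; adjusted p = 0.763). Rpl41, the smallest ribosomal protein, had it in 6 of 6 and 1 of 4 (unadjusted p = 0.0333, Fisher's exact test; adjusted p = 0.660). Its region, chr10:128547089-128547964, lies past the far end of Rpl41 and within 1 kb of Zc3h10. Rps14, loss of 1 copy of which underlies the anaemia of the 5q- syndrome, had it in 6 of 6 and 2 of 4, both of the latter in T1. Rpl36a had it in 3 of 6 and 0 of 4 at its ends, but in 4 of 6 and 4 of 4 at its locus. The KO-iMOS lists held 20241 and 13053 peaks in T1 and 14882 and 6372 in T2. Neither T2 library had a peak at the ends of any of the 4 genes. The longest WT-iMOS Spi1 list held 12261 peaks, fewer than KO-iMOS T2 replicate 1. The part of list length in these absences was not tested.

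Rpl7 stood higher, with Spi1 in 1 of 6 WT-iMOS libraries, at percentile 3.79, and in 4 of 4 KO-iMOS libraries, at 42.6, 6.83, 26.2 and 11.4 (unadjusted p = 0.0476, Fisher's exact test; adjusted p = 0.763). Bcl11a also lay there in 4 of 6 WT-iMOS libraries, the largest excess of Bcl11a over Spi1 at the ends of a member. Its region, chr1:16104434-16105745, is within 1 kb of Rdh10. Rpl18, Rpl35, Rpl37 and Rps27a, the last of which is made as a fusion with ubiquitin, each had Spi1 in 1 of 6 and 3 of 4. Rplp2 of the P-stalk and the paralog Rpl36al also had it in 1 of 6 and 3 of 4 libraries. The regions of Rpl37, Rps27a, Rplp2 and Rpl36al lie within 1 kb of Card6, Clhc1, Pidd1 and Mgat2, in that order. These peaks cannot be given to either gene alone. The Rpl18 summits lay between -2886 and -1769 bp from its start site. At its locus Rpl18 had Spi1 in 5 of 6 and 3 of 4 libraries, the opposite order.

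T1 and T2 could not be tested, since Fisher's exact test of 3 against 3 libraries cannot go below p = 0.1 and of 2 against 2 not below 0.333. Bcl11a lay at the ends of 2 members, Rps29 and Rplp0, in every T1 and no T2 library, where 1.27% of all genes had that pattern. No member had the reverse (0.00914% of all genes). At Rps29, a small subunit protein mutated in Diamond-Blackfan anaemia, the 3 T1 peaks stood at percentiles 69.5, 84.6 and 86.2 (chr12:69158864-69159694). At Rplp0, the base of the stalk, they stood at 1.79, 10.4 and 3.24, near the floor of their lists (chr5:115559339-115560097). On average 13.3 members had Bcl11a in a T1 library and 1.0 in a T2 library, where 10.8% and 2.99% of all genes did. T1 replicate 1, with 4 members, lay nearer to T2 than to the other T1 libraries. The count of 2 members was 7 without T1 replicate 1 and 1 with lists of equal length.

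Spi1 in WT-iMOS cells was found at 27 members on average in T1 and at 26.3 in T2, and no member separated T1 from T2 in either direction (0.0777% and 0.0503% of all genes did). In KO-iMOS cells the means were 46 and 25, where 27.5% and 19.0% of all genes had a peak. Rpl35a, Rps14, Rps27 and Rps6 had Spi1 in both T1 and neither T2 library, against 2.38% of all genes, and 0 members had the reverse (0.178%). This count of 4 was 21 without T2 replicate 1, 19 without T1 replicate 2 and 0 with lists of equal length. Rps6 is the ribosomal substrate of the S6 kinases.

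Where a start site was known, most peaks near a gene end lay at the start. Of 126 Spi1 peaks in WT-iMOS libraries, 113 (89.7%) had their summit within 1 kb of it, at 34 members. Their median position was -54 bp, with quartiles of -201 and 42 bp, and 96.5% lay between -500 and 200 bp. In KO-iMOS 97 of 109 summits (89.0%) lay within 1 kb, with a median of -93 bp, and for Bcl11a 24 of 27 (88.9%), with a median of -134 bp. The 3 medians all lie upstream of the start, within the spread of single summits.

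**Figure D4:**
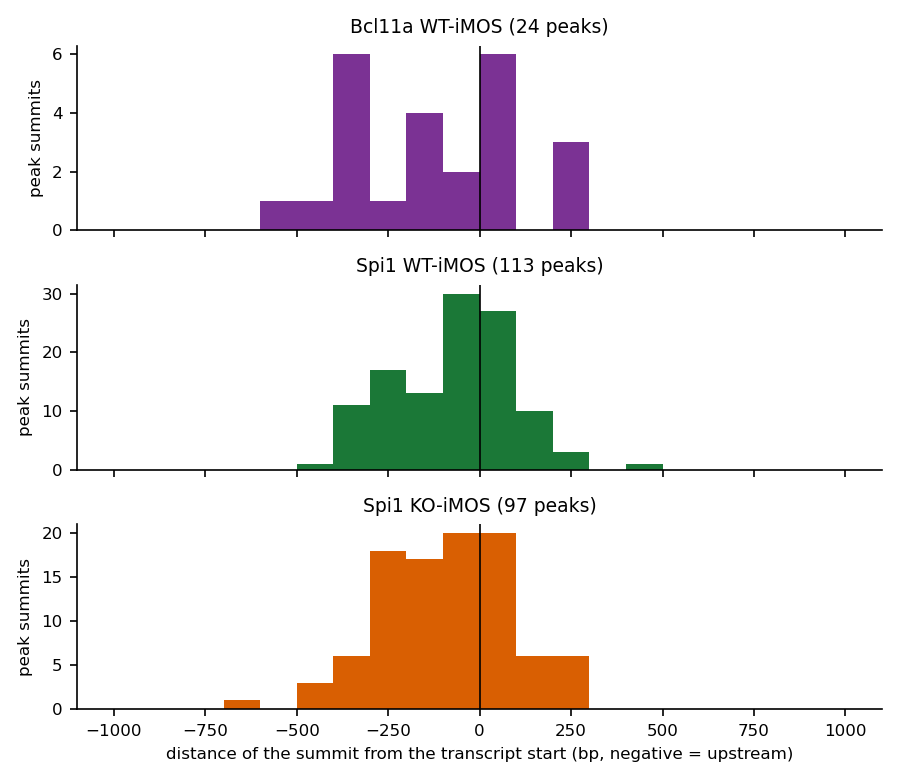
Number of peak summits by distance from the transcript start (bp, negative values upstream, 100 bp per bar) at ribosomal protein genes with a known start, in 3 panels for Bcl11a in WT-iMOS, Spi1 in WT-iMOS and Spi1 in KO-iMOS. The 113 Spi1 summits in WT-iMOS centre on a median of -54 bp, and the 24 Bcl11a summits are spread more thinly around -134 bp.

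The motif GGAAGT, searched on both strands from 250 bp before to 50 bp after the start, occurred in 30 of 69 member promoters (43.5%) against 25.1% of 17491 promoters. It was in 13 of the 22 members with Spi1 in at least 3 WT-iMOS libraries (59.1%), in 8 of 15 with Spi1 in 1 or 2 (53.3%) and in 9 of 32 with none (28.1%). Among all 1693 promoters of genes with Spi1 in at least 3 libraries the share was 43.5%. The promoters of Rps25, Rps3, Rps18 and Rps21 are examples, with 2, 2, 3 and 2 matches in the searched window. The shorter printed stretches hold 2, 1, 3 and 1 of them. GAGGAAGT, a longer form that Spi1 prefers and that contains GGAAGT, was in 3 member promoters (4.35%) against 3.14% of all. Split by Spi1 in the same way, it was in 1 of 22, 1 of 15 and 1 of 32 members. Among the 1693 promoters with Spi1 in at least 3 libraries it was in 7.74%. CCGGAAGT, the form of the GABPA type and also overlapping GGAAGT, was in 11 (15.9%) against 5.28%. In the same order it was in 6 of 22, 3 of 15 and 2 of 32 members, and in 13.3% of the 1693 promoters. Which ETS factor the GGAAGT shares reflect was not tested.

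TGACCA, a motif reported for Bcl11a zinc fingers, was in 9 member promoters (13.0%) against 12.6% of all, and in 0 of the 19 members with a start site and a Bcl11a peak. The YY1-type motif AAGATGGC was in 6 (8.70%) against 3.21%, the E-box CACGTG in 5 (7.25%) against 7.91%, and the TATA box TATAAA in 9 (13.0%) against 13.3%. The median GC content was 57.0% for member promoters and 56.3% for all. A match describes the letters only and does not show that a factor sits there.

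Some members had no peak. At 13 genes no library had a summit in the locus: Rpl10a, Rpl10l, Rpl23, Rpl27a, Rpl28, Rpl32l, Rpl34-ps1, Rpl36, Rpl37a, Rpl37rt, Rpl39l, Rpl9 and Rps4x. Of these, Rpl10l and Rpl39l are paralogs expressed in the testis. The share of all genes without a summit over the 16 libraries is not given. By group, 47.8% of members had a locus peak in any Bcl11a library, against 39.3% of all genes. For Spi1 these shares were 67.8% against 44.7% in WT-iMOS and 78.9% against 60.1% in KO-iMOS. Among the 13 paralogs and retrocopies, Rpl7l1 had Spi1 in 4 of 6 WT-iMOS and 4 of 4 KO-iMOS libraries and Rpl36al as given above. Rpl3l, the muscle form of Rpl3, and Rpl22l1, the paralog of Rpl22, had it in 1 KO-iMOS library each. The remaining 9 had no peak at an end in any of the 16 libraries. Rps19bp1 had Spi1 in 3 of 6 and 1 of 4 libraries. Rpl29 and Rps28 had Spi1 at their loci in 6 of 6 and 4 of 4 libraries, but at their ends in 0 of 10 and 1 of 10 libraries.

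Neighbours and hosted genes were compared as features that the symbol rule did not use. Spi1 recurred in WT-iMOS at 9 of 36 members with another gene within 1 kb and at 18 of 54 without one. Members that host a small nucleolar RNA in the gene had it at 5 of 29, and the others at 22 of 61. In KO-iMOS these counts were 17 and 25, and 12 and 30. The shares over all genes with and without these features are not given, and no test of the features was made.

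Genes of other parts of the ribosome pathway give the context. Spi1 recurred at 11 of 78 mitochondrial ribosomal protein genes in WT-iMOS (14.1%) and at 39 (50%) in KO-iMOS. Cytosolic and mitochondrial genes thus stood at 30.0% and 14.1% in WT-iMOS and at 46.7% and 50% in KO-iMOS. For 36 ribosome biogenesis genes the counts were 7 (19.4%) and 17 (47.2%), and for 11 RNA polymerase I genes 3 and 6. Bcl11a recurred at 1, 3 and 0 genes of these lists. Whether the lists differ was not tested.

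**Figure D5:**
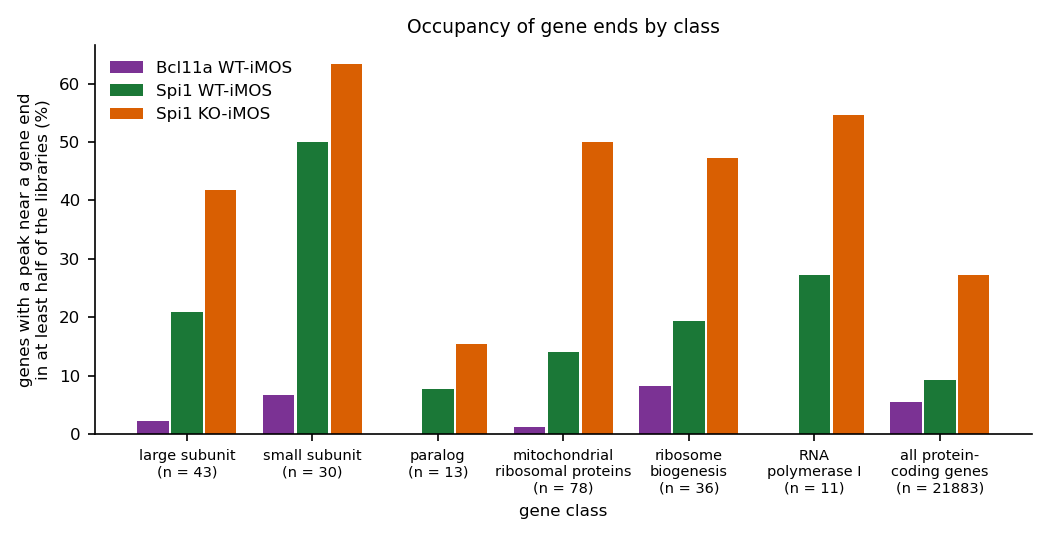
Percentage of genes in each class with a peak within 1 kb of a gene end in at least 3 of 6 or 2 of 4 libraries, for Bcl11a in WT-iMOS, Spi1 in WT-iMOS and Spi1 in KO-iMOS; n is the number of genes, and the P-stalk and Rps19bp1 are left out. Spi1 in WT-iMOS is highest for small subunit genes, at 50%, while in KO-iMOS small subunit genes stand at 63.3% and mitochondrial ribosomal protein genes at 50%.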

How the data were processed

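CUT&Tag libraries for Bcl11a and Spi1 came from sorted bone marrow MPP3 cells and were grouped by target, genotype and T as in their titles. The submitters' processing notes name Bowtie2, SAMtools, MACS2 and mm10, without versions. The authors deposited 1 narrowPeak list per library, in which each peak has a score, a fold enrichment (a ratio) and −log10 transformed p- and q-values. Peaks were ranked by the authors' −log10 p, and filtered by their −log10 q in 1 alternative, always within 1 list. The smallest deposited −log10 q was 2.00. The lists hold no counts, so depth is unknown and the number of peaks limits precision. Use of a control library by the caller is not stated in the labels or headers.

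Python 3.11.15 with numpy 2.4.6, scipy 1.17.1 and pandas 2.3.3 was used on the 130097 of 131939 peaks that lie on assembled chromosomes. Gene bodies came from a RefSeq table on GRCm38.p6, and strand, start sites and sequences from a RefSeq promoter table of the same build. Presence of a summit was compared by two-sided Fisher's exact test over libraries with Benjamini-Hochberg adjustment over all genes (threshold 0.05). Shares in genes of like length used 20 bins of gene length. Named genes were those with Bcl11a in most libraries, the largest differences between genotypes or targets, a complete split by T, a peak at an end in at least 15 of 16 libraries (none) or at the locus in no library, and every paralog; other genes named served to show a count, and were chosen after their values were seen. On simulated presence calls, all 200 completely changed genes reached p under 0.05 before adjustment, and 0 did after it. Members, lists and motifs were chosen with earlier results of these data known. Alternatives covered list length, window, peak strength, assignment to the nearest gene, length bins, the replicate block and left-out libraries. Some genes are not reported here by name.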

Additional observations from a re-analysis of the deposited data

How the results depend on the processing

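In the 84 alternative fits of the 4 tests, 0 genes passed the adjustment. Leaving out single libraries also gave 0 to 0 calls. With all libraries, the smallest unadjusted p that Fisher's exact test allows is 0.00476 between genotypes and 0.00216 between targets. Adjustment over 21883 genes then leaves little room for a call, so these counts of 0 cannot show that the results are robust. The labels do not say whether replicate numbers pair the libraries. Deviations of same-numbered libraries correlated from -0.201 to 0.208 with 1 of 10 pairs over 0.1, which cannot settle whether they were paired. With the replicate block 0 genes were called in each test; the smallest p it allowed was 0.125 between genotypes and 0.0312 between targets, where at ends 11 genes were higher for Bcl11a and 161 for Spi1 at an unadjusted p under 0.05, 3 of these being members. Without the block, 49 and 368 genes, with 10 members, were past that level. Over the other settings the members with more frequent Spi1 at ends numbered 8 to 13, and without single libraries 10 to 15; members higher in KO-iMOS numbered 1 to 7 without single libraries and those lower 1 to 2.

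Lists of equal length gave recurrent peaks at ends at 2 members for Bcl11a, 12 for Spi1 in WT-iMOS and 7 for Spi1 in KO-iMOS, and at loci at 5, 14 and 10. A deposited −log10 q of at least 5 gave Bcl11a at 2 members at ends and 5 at loci. Without Bcl11a T1 replicates 2 and 3 these were 2 and 6. Counting peaks for the nearest gene only gave Bcl11a at 5 loci, and a 3 kb flank 6. Leaving out any 1 of the 3 Bcl11a T1 libraries gave 2 members at ends. At loci 5 remained without T1 replicate 2 or 3 and 7 without T1 replicate 1.

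The median ratio over genes of like length for Spi1 in WT-iMOS was 3.96 at ends. It was 4.49 with equal lists, 4.38 with the stricter q, 4.43 with the nearest gene, 3.13 within 3 kb and 3.41 with bins that also match neighbouring genes. At loci it was 2.16, against 2.84 with the nearest gene, 3.10 with a 3 kb flank and 1.88 with matched neighbours. For KO-iMOS loci it was 1.76, against 1.34 with equal lists. With 1 library left out, the ranges at ends and loci were 21 to 26 and 24 to 29 members for Spi1 in WT-iMOS, 30 to 42 and 41 to 57 in KO-iMOS, and 2 to 4 and 5 to 11 for Bcl11a. The ratios ranged from 3.94 to 3.98 and 2.14 to 2.19, from 2.17 to 2.52 and 1.76 to 1.77, and from 0.428 to 1.13 and 0.864 to 1.15 in the same order.

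Members separating T1 from T2 numbered 1 for Bcl11a with equal lists, 1 with the stricter q, and 0 for Spi1 in KO-iMOS with equal lists. With 1 library left out they ranged from 2 to 7 for Bcl11a (7 without T1 replicate 1), from 0 to 2 for Spi1 in WT-iMOS (2 without T2 replicate 1) and from 4 to 21 in KO-iMOS (21 without T2 replicate 1 and 19 without T1 replicate 2). Causes of these shifts were not tested beyond the fewer libraries or peaks that each setting leaves.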

Other observations

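Ribosomal protein genes have many processed pseudogenes. Of 312 annotated pseudogenes with ribosomal protein symbols, 0 or 1 had a peak near an end in each of the 16 libraries, and 3 (0.962%) in any of them. How reads that match several places were treated is not known from the labels.

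The shorter ETS core CCGGAA, searched after the data were seen and overlapping CCGGAAGT, was in 32 of 69 member promoters (46.4%) against 19.1% of 17491. It was in 16 of 22 members with Spi1 in at least 3 WT-iMOS libraries, in 6 of 15 with 1 or 2 and in 10 of 32 with none.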
